A study of Mus musculus with 4 samples.

Results

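Small leucine-rich proteoglycans are secreted proteins of the extracellular matrix, and 10 of their genes were followed here in mouse gastrocnemius muscle: Dcn, Bgn, Aspn, Fmod, Lum, Prelp, Kera, Omd, Ogn and Chad. They were found by gene symbol, and all 10 had 1 row each among the 23282 gene rows of the series. Gastrocnemius RNA of male CDF1 mice, a cross of BALB/c and DBA/2 animals, was sequenced from the 3′ ends of polyadenylated transcripts with the QuantSeq kit, in a design that crossed high-intensity treadmill exercise (E) with a tumor (T). The tumor was raised by tail vein injection of CT26, a colorectal carcinoma line of BALB/c origin, so that it spread through the circulation and was not placed in the muscle. Of the 4 groups, the tumor-free ones were normal control, with neither exercise nor tumor (E-T-), and normal exercise, with exercise alone (E+T-). The tumor-bearing ones were cancer control, with the tumor alone (E-T+), and cancer exercise, with both (E+T+). All samples are labelled postnatal day 28. The paper gives about this age for the mice at purchase and places tissue collection later, when the experiment ended. The label is thus not the age at which the muscle was taken.

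Each group had 1 library, so no difference given here has a replicate check and no p-value is given. The design text names 10 mice per group, whereas the paper speaks of a representative animal, and whether a library held RNA of 1 mouse or of several was not settled. The libraries held 10647523 to 13225969 reads, and 14427 to 14830 genes had reads. All 10 markers of skeletal muscle, among them Acta1, Ckm and Ttn, had reads in every library. Their sum was 113727 RPM (reads per 1000000 reads of the library) in normal control, 105515 with normal exercise, 79565 in cancer control and 85655 with cancer exercise, the order that most of the proteoglycan genes also show, and its part in their levels was not tested. The muscle markers did not move as a group. Against normal control, 7 were lower and 3 higher in cancer control (median log2 change -0.29). Against normal exercise, 5 were lower and 5 higher with cancer exercise (median -0.006). Markers of other cell types differed between the libraries and are given beside the results that they accompany. Because the tissue was sequenced in bulk, fewer cells of a type and less RNA per cell cannot be told apart.

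The proteins of this family share a core of leucine-rich repeats, which binds collagen, and most carry chains of chondroitin, dermatan or keratan sulfate. They control how collagen fibrils form, widen and pack, and several also hold growth factors such as transforming growth factor β in the matrix. In and around muscle they are made mainly by fibroblasts of the connective tissue sheaths and by tendon cells. By sequence, Dcn, Bgn and Aspn form class I, Fmod, Lum, Prelp, Kera and Omd form class II, Ogn belongs to class III and Chad to class IV.

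Several of the genes lie side by side in the genome (GENCODE M21 on GRCm38, which is mm10). Dcn, Lum and Kera follow each other on chromosome 10 with Epyc, within 203 kb from 97479609 to 97682454. Aspn, Omd and Ogn stand on chromosome 13 with Ecm2, within 120 kb from 49504810 to 49624501. Prelp and Fmod lie on chromosome 1 with Optc, within 151 kb from 133897199 to 134048277, whereas Chad is on chromosome 11 and Bgn on chromosome X. The gene Cenpp lies over Aspn, Omd and Ogn on the opposite strand and had 9 to 31 reads, and Acsf2 lies over Chad on the opposite strand and had 9 to 28 reads. How the counting treated strand was not given in the sources used here, so reads of such partners could not be separated.

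Promoter sequences of 8 of the 10 genes were found in RefSeq (GRCm38), as 300 bases from 250 before to 50 after the start. Dcn and Lum had no entry. Printed here are the promoters of Fmod, Kera and Chad, whose transcripts differed most between the libraries, and of Bgn, which differed little. Capitals mark each match to CANNTG, the E-box core that basic helix-loop-helix factors such as the tendon factor Scx can bind, which reads the same on both strands. The Fmod promoter lies at chr1:134037004-134037303, that of Kera at chr10:97606955-97607254, that of Chad at chr11:94564797-94565096 and that of Bgn at chrX:73483351-73483650, all on the plus strand. GENCODE M21 starts Kera at 97606879, before this window, so RefSeq and GENCODE place the start of Kera differently.
Fmod: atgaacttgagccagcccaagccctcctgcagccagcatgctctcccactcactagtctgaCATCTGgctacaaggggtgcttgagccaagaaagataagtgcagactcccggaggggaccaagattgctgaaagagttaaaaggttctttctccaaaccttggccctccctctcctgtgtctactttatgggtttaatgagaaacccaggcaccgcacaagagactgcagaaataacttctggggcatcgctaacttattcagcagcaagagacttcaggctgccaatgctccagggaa
Kera: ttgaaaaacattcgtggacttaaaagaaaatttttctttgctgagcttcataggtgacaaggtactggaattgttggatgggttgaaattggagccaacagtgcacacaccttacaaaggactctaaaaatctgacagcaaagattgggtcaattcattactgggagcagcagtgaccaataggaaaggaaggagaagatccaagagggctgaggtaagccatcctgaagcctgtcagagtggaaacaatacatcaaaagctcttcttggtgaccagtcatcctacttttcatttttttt
Chad: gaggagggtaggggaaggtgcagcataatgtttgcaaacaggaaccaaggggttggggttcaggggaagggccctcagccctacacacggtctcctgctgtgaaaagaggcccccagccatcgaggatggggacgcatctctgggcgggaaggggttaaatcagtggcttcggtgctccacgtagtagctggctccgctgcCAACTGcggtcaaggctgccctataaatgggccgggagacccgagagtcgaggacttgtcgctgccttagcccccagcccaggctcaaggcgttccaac
Bgn: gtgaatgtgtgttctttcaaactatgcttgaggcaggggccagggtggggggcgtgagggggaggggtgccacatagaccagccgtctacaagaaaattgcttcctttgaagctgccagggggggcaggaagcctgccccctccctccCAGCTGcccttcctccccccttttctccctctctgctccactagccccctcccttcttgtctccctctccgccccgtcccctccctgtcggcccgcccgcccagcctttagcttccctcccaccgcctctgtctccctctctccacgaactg

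CANNTG was present in 6 of the 8 promoters, all but those of Kera and Omd, and in 72.3% of the 32851 RefSeq mouse promoters of the same length. TATAAA, searched on both strands, was present in 3 of the 8, those of Aspn, Ogn and Chad, and in 13.6% of all promoters. Among the 4 printed sequences, Fmod, Chad and Bgn hold 1 CANNTG match each and Kera holds none. The GC content was 51% for Fmod, 41% for Kera, 61% for Chad and 63.7% for Bgn. A match describes letters in the window and is not a binding site.

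Together the 10 genes took 0.568% of all reads in normal control and 0.403% with normal exercise, against 0.322% in cancer control and 0.312% with cancer exercise. Dcn, the decorin gene, supplied most of these reads, 85.1%, 86.7%, 96.4% and 93.3% in the same order. It was the 18th most abundant gene in both normal libraries, the 29th in cancer control and the 33rd in cancer exercise. The other 9 genes were therefore also summed without it. Their sum was 846 RPM in normal control and 537 RPM with normal exercise, against 116 RPM in cancer control and 210 RPM with cancer exercise. The highest sum of a cancer library was thus below the lowest of a normal library.

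In 8 of the 10 genes the levels rank in one order, from cancer control through cancer exercise and normal exercise to normal control. The share of all genes that rank this way was not determined, so whether 8 of 10 is unusual is not known here. Dcn and Omd differ from this order only in that cancer exercise was their lowest library. Between libraries that differ in 1 factor, the counting interval included no difference for Omd and Chad in cancer exercise against cancer control, so that their order there is not resolved. Levels are normalized read counts, which in this 3′ assay do not scale with transcript length, and were deposited as log2 of the count plus 1. The distance between the lowest and the highest library varied widely among the genes. On the log2 scale it was 0.74 for Dcn and 1.0 for Bgn, between 2.12 and 2.66 for Aspn, Prelp and Omd, 3.41 for Ogn, 4.05 for Lum, 5.61 for Fmod, 8.35 for Chad and 8.86 for Kera.

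**Figure D1:**
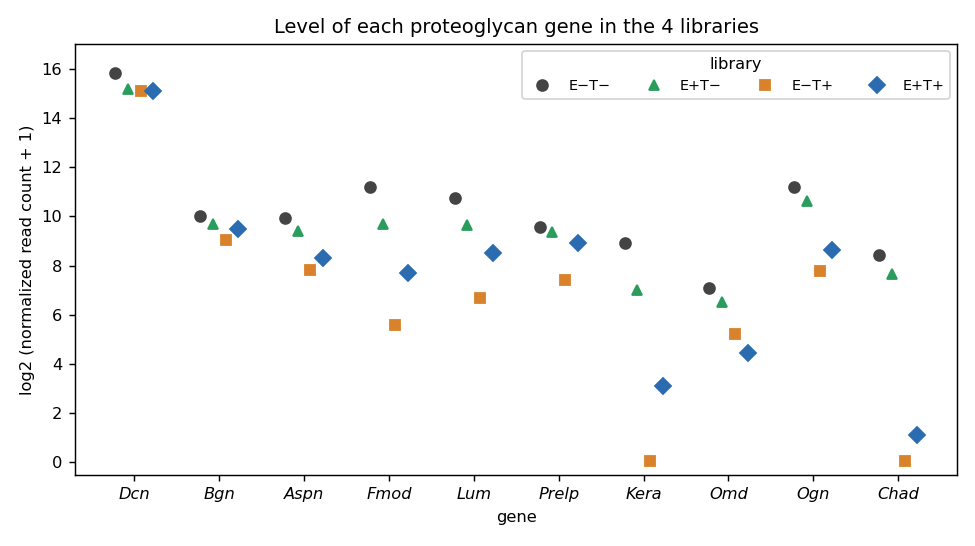
Level of each of the 10 proteoglycan genes (horizontal axis) as log2 of the normalized read count plus 1 (vertical axis) in the 4 libraries, 1 point per library and no error bars. Dcn stays between 15.09 and 15.82, whereas Kera and Chad reach 0.07 in cancer control, where they had 0 reads.

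Of the class I genes, Dcn and Bgn were the least different between libraries of all 10. Dcn, which binds collagen I and limits the width of fibrils, had normalized read counts of 57888 in normal control and 37431 with normal exercise, against 35363 in cancer control and 34756 with cancer exercise. Normal control stood above the other libraries, which lay close together. Bgn, or biglycan, is the closest relative of decorin and, when released from the matrix, also acts on Toll-like receptors. It had 1040, 830, 521 and 714 in the same order of libraries. Cancer control was the lowest library for Bgn, at 50% of normal control.

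Aspn, which encodes asporin, a class I protein without the usual glycosaminoglycan chain, differed more. It had 983 in normal control and 669 with normal exercise, against 226 in cancer control and 311 with cancer exercise. Both cancer libraries lay below both normal libraries.

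In class II, Fmod and Lum encode fibromodulin and lumican, keratan sulfate proteoglycans that bind an overlapping region of collagen I and follow each other in fibril growth. Fmod had normalized read counts of 2343 in normal control and 815 with normal exercise, against 47.2 in cancer control and 209 with cancer exercise, and its cancer control value rests on 44 reads. Lum had 1707, 804, 102 and 364 in the same order. For both genes the 4 libraries were well separated, with normal control highest and cancer control lowest.

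Prelp encodes a heparin-binding member that is thought to anchor basement membranes to the connective tissue below. It had 758 in normal control and 662 with normal exercise, against 171 in cancer control and 479 with cancer exercise. Cancer exercise thus lay nearer to the normal libraries than to cancer control. Kera encodes keratocan, known best from the cornea and present in tendon. It had 457 reads in normal control and 156 with normal exercise, but 0 in cancer control and 7 in cancer exercise, which gives normalized counts of 486, 126, 0.0512 and 7.65. The value of 0.0512 is a product of the normalization and stands for a library without reads.

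Omd, encoding osteomodulin of bone and tendon matrix, was the least abundant of the 10 genes in normal control. It had 136 in normal control and 89.3 with normal exercise, against 36.5 in cancer control and 20.6 with cancer exercise. The last value rests on 19 reads and the one before on 34. Ogn encodes osteoglycin, also called mimecan, a class III protein known also as a factor secreted by muscle cells. It had 2348, 1559, 221 and 400 in the same order, with both cancer libraries below both normal libraries.

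Chad, the class IV gene of chondroadherin, encodes a protein without glycosaminoglycan chains that binds integrins and is typical of cartilage and tendon. It had 321 reads in normal control and 249 with normal exercise, against 0 in cancer control and 1 with cancer exercise. For a count of 0 a floor of 3 reads was used, or 2.82e-05% of the cancer control library, and its 95% Poisson interval reaches 3.69 reads. Chad thus separated the normal from the cancer libraries, with almost no reads in the latter.

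The first comparison asked what the tumor went with in mice that did not exercise. A gene was counted as changed where the deposited log2 values differed by at least 1, which is 2-fold, and 1 or both of the libraries reached a normalized count of 4. In cancer control against normal control, 8 of the 10 genes were lower by this rule and none higher. Over all 14818 genes tested 24.2% were lower and 20.9% higher. The median log2 change was -2.77 for the 10 genes and -0.043 for all genes tested, and setting the genes with 0 reads to the floor of 3 reads left the former at -2.77. The 2 genes that did not pass were Dcn, at -0.71, and Bgn, at -1.0, just short of 2-fold.

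The fall was steepest for Kera and Chad, each with 0 reads in cancer control. Set to the floor of 3 reads, Kera was 151-fold lower and Chad 106-fold lower. The 95% counting intervals reach up to log2 changes of -6.94 for Kera and -6.43 for Chad, which are smaller falls. Fmod fell by 5.61 on the log2 scale, with a 95% interval of -6.10 to -5.21 from counting error alone, so that 2.01% of the normal control level was left. Only 0.452% of the genes tested lay further down than Fmod. Lum fell by 4.05 (interval -4.38 to -3.77), its genomic neighbor Dcn being at 61.1% of normal control while Lum was at 5.96%. Ogn fell by 3.41 (interval -3.63 to -3.21) and stood at 9.39% of normal control.

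The falls of Prelp, Aspn and Omd were smaller and close to each other. Prelp fell by 2.14 (interval -2.40 to -1.90), Aspn by 2.12 (interval -2.34 to -1.90) and Omd by 1.87 (interval -2.49 to -1.35), and these intervals overlap. Some neighbors in the genome moved by different amounts, as the intervals of Omd and Ogn on chromosome 13 do not overlap, nor do those of Prelp and Fmod on chromosome 1. With scaling to the summed fibroblast markers Prelp, Aspn and Omd no longer passed, at -0.33, -0.31 and -0.09, Bgn had a positive sign and Dcn was higher by the threshold, at 1.10. Under that scaling 73% of all genes tested were higher and 7.25% lower in this comparison.

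**Figure D2:**
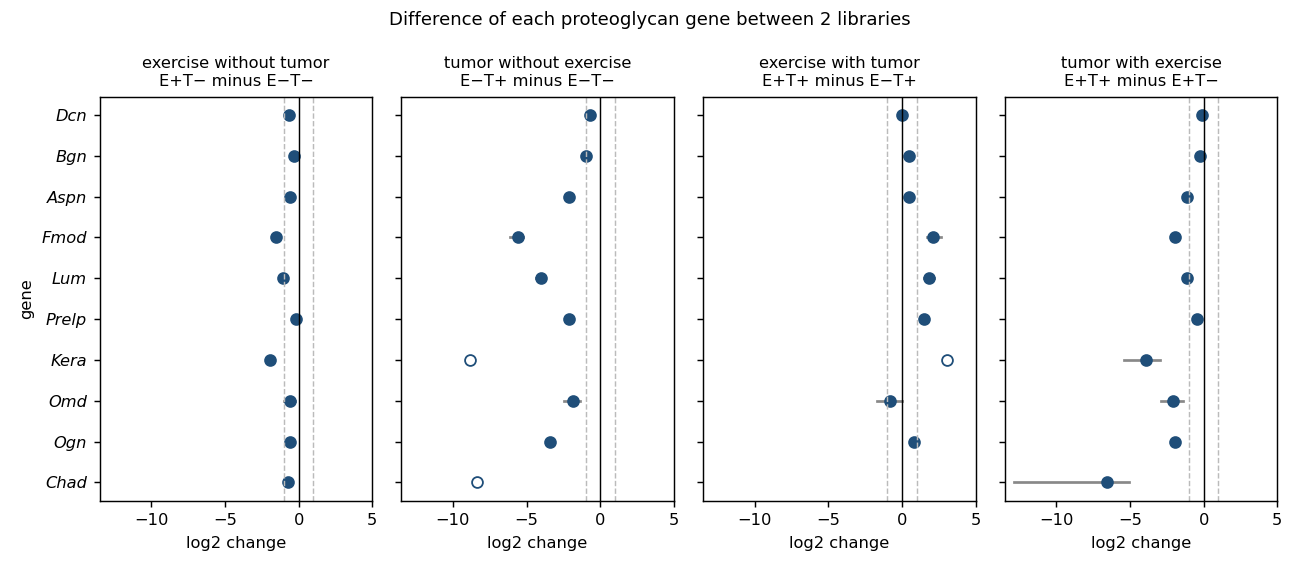
Difference of the deposited log2 values between 2 libraries for each of the 10 genes, 1 panel per comparison, with 95% counting intervals as bars, dashed lines at a 2-fold change and open circles where 1 library had 0 reads and no interval is drawn. In the tumor comparison without exercise 8 genes lie left of the dashed lines. In the exercise comparison with tumor Fmod, Lum, Prelp and Kera lie right of them, and Chad, with 1 read against 0, is not drawn.

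The second comparison set cancer exercise against normal exercise, both after treadmill running, and shares no library with the first. Here 7 of the 10 genes were lower by at least 2-fold and none higher, where 16.3% of the 14470 genes tested were lower and 13.9% higher. The median log2 change was -1.55 for the 10 genes and -0.03 for all genes. Chad had 1 read against 249. The deposited values differ by -6.56 on the log2 scale and the scaled reads by 186-fold, with a log2 interval of -12.85 to -5.05, so that the size of this fall is poorly known. Kera fell by 3.88 (interval -5.40 to -2.98), from 156 reads to 7. Omd, with 19 reads against 110, fell by 2.06 (interval -2.90 to -1.40).

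Fmod and Ogn both fell by 1.96, which left each at 25.6% of normal exercise. Lum fell by 1.14 and Aspn by 1.10, each near the threshold. The 3 genes that did not pass were Dcn at -0.11, Bgn at -0.22 and Prelp at -0.47. Decorin and biglycan transcripts were thus at 92.9% and 86.1% of normal exercise, against 25.6% for fibromodulin. With scaling to the summed fibroblast markers Lum, at -0.27, and Aspn, at -0.23, no longer passed, and Dcn, Bgn and Prelp had a positive sign. Under that scaling 42.6% of all genes tested were higher and 7.1% lower, and the median of all genes was 0.86.

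The third comparison asked what exercise went with in tumor-free mice. In normal exercise against normal control all 10 genes had a negative log2 change, and 3 of them, Fmod, Lum and Kera, were lower by at least 2-fold. Of the 14518 genes tested, 12.1% were lower and 9.44% higher by this rule. The median log2 change was -0.62 for the 10 genes and -0.01 for all genes. Kera fell by 1.93 (interval -2.21 to -1.68), Fmod by 1.52 (interval -1.63 to -1.41) and Lum by 1.08 (interval -1.20 to -0.97). The call for Lum depended on the scaling, since with total count scaling its change was -0.92 and with scaling to the summed fibroblast markers -0.65. All 3 are class II genes.

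The other 7 genes lay between -0.75 for Chad and -0.20 for Prelp, with Dcn at -0.63, Omd at -0.60, Ogn at -0.59, Aspn at -0.55 and Bgn at -0.33. These values are short of 2-fold, and the spread between mice of 1 group, which would be needed to judge them, was not measured. All 10 signs were also negative with total count, TMM (trimmed mean of M values) and median-of-ratios scaling, but Bgn and Prelp were positive when the libraries were scaled to their summed fibroblast markers. Under fibroblast scaling 17% of all genes tested were higher and 6.37% lower, and the median of all genes was 0.42. Total count scaling moved the median of all genes to 0.15 in this comparison and to -0.19 in that of cancer exercise with normal exercise.

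The fourth comparison asked the same of tumor-bearing mice. In cancer exercise against cancer control 4 genes were higher by at least 2-fold, Fmod, Lum, Prelp and Kera, and none was lower. Chad, with 1 read against 0, was under the minimum, so that 9 genes were tested, and no fold is given for it. Of the 14491 genes tested, 15.6% were higher and 15.1% lower. The median log2 change was 0.85 for the 9 genes, also with Kera at the floor, and 0.005 for all genes tested. All 4 are class II genes, of which only Omd did not rise.

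Fmod rose by 2.12 (interval 1.67 to 2.66), from 44 reads to 193. Lum rose by 1.83 (interval 1.51 to 2.18) and Prelp by 1.48 (interval 1.22 to 1.75). Kera, with 7 reads against 0, was at least 2.36-fold higher by the floor of 3 reads, and it did not pass where a normalized count of at least 16 was required. The other genes were short of 2-fold, with Ogn at 0.85, Aspn at 0.46, Bgn at 0.45 and Dcn at -0.025. Omd, with 19 reads against 34, was at -0.79 with an interval of -1.72 to 0.028, so that a difference was not detectable at this depth. With scaling to the summed fibroblast markers Prelp was just short of the threshold, at 0.98, Aspn and Bgn had a negative sign and Omd was lower by the threshold, at -1.30, where 28.2% of all genes were lower and 10.4% higher.

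**Figure D3:**
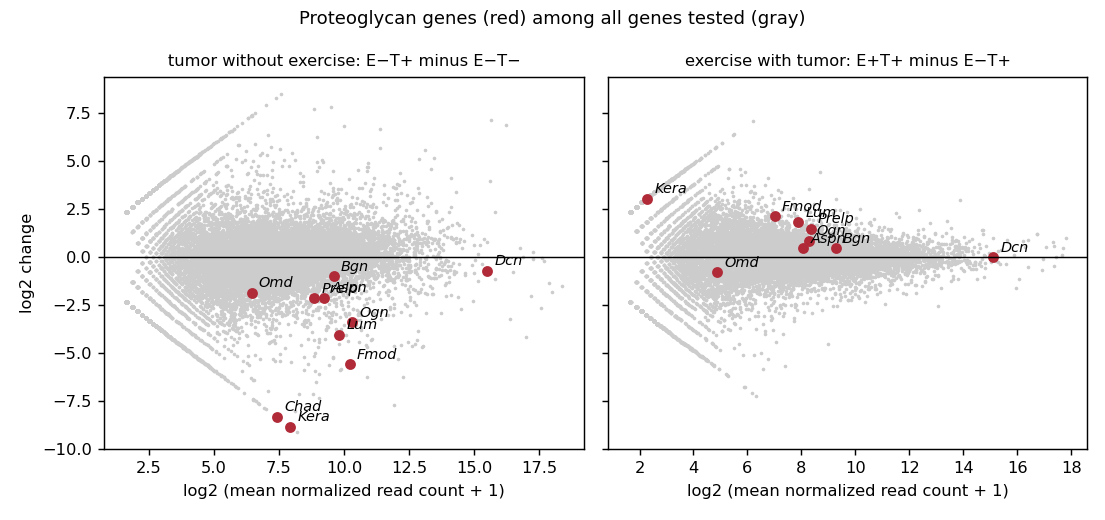
Log2 change (vertical axis) against log2 of the mean normalized read count plus 1 (horizontal axis) for all genes tested (gray) and the proteoglycan genes (red), for cancer control against normal control (left) and cancer exercise against cancer control (right). In the left panel Kera, Chad and Fmod lie at the lower edge of the cloud. In the right panel Kera, Fmod, Lum and Prelp lie above 1 while Dcn is at -0.025, and Chad, under the minimum, is not drawn.

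Each library enters 2 comparisons and can set values in both, so the log2 changes with exercise are given side by side. For Fmod the change with exercise was -1.52 without tumor and 2.12 with tumor, for Lum -1.08 and 1.83, and for Kera -1.93 and 3.04. The last value is taken against 0 reads and depends on the pseudocount, being 1.52 with a pseudocount of 4 and at least 1.24 by the floor of 3 reads. The difference, with tumor minus without, was 3.65 for Fmod, 2.91 for Lum and 4.97 for Kera (3.17 with the floor), and it was not tested, as each group had 1 library. Opposite 2-fold changes of this kind, lower without and higher with the tumor, were found in 2.63% of the 13524 genes tested in both comparisons. The difference was at least 1 in 7 of the 10 genes, where 21.7% of 15485 genes reached it, and positive in 9, where 50.9% were, the exception being Omd at -0.19. Among the 7 is Chad, whose value with tumor rests on 1 read against 0. With scaling to the summed fibroblast markers 4 genes had a difference of at least 1. That scaling moved the median change of all genes with exercise to 0.42 without tumor and -0.50 with tumor. The share of all genes that reach a difference of at least 1 under it was not determined. The class I genes Dcn and Bgn were at 0.60 and 0.78.

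Ratios within a library do not depend on how libraries were scaled to each other. Per 100 Dcn reads there were 4.05 Fmod reads in normal control and 2.18 with normal exercise, against 0.133 in cancer control and 0.601 with cancer exercise. Fibromodulin transcripts were thus scarce relative to decorin in both cancer libraries. For Lum the ratio was 2.95, 2.15, 0.288 and 1.05 in the same order, for Ogn 4.06, 4.16, 0.624 and 1.15, and for Bgn 1.8, 2.22, 1.47 and 2.05. For Prelp it was 1.31, 1.77, 0.485 and 1.38, so that Bgn and Prelp in cancer exercise lay between their values in the normal libraries.

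All 9 ratios to Dcn were lower in cancer control than in normal control with 95% intervals that do not overlap, as were 14.2% of the 14817 other genes tested, while 50.9% of those were higher. In cancer exercise against normal exercise 8 of the 9 were lower in this way, all but Bgn, where 21.3% of genes were, and none was higher, where 29.9% were. In normal exercise against normal control Fmod, Lum and Kera were lower, where 4.46% of genes were, and Bgn and Prelp were higher, where 57.1% were. In cancer exercise against cancer control 6 were higher, Bgn, Aspn, Fmod, Lum, Prelp and Ogn, where 25.9% of genes were, and none was lower, where 23.9% were. These intervals cover counting error only, not differences between mice.

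Ratios between neighbors and relatives shifted too. There were 72.8 Lum reads per 100 Fmod reads in normal control and 98.6 with normal exercise, against 216 in cancer control and 174 in cancer exercise. Lumican thus passed fibromodulin in the cancer libraries. The ratio of Omd to Ogn reads was 5.8, 5.72, 16.5 and 5.15 per 100 in the 4 libraries, high in cancer control alone. Kera reads per 100 Lum reads were 28.5 in normal control and 15.7 with normal exercise, but 0 in cancer control and 2.08 in cancer exercise.

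**Figure D4:**
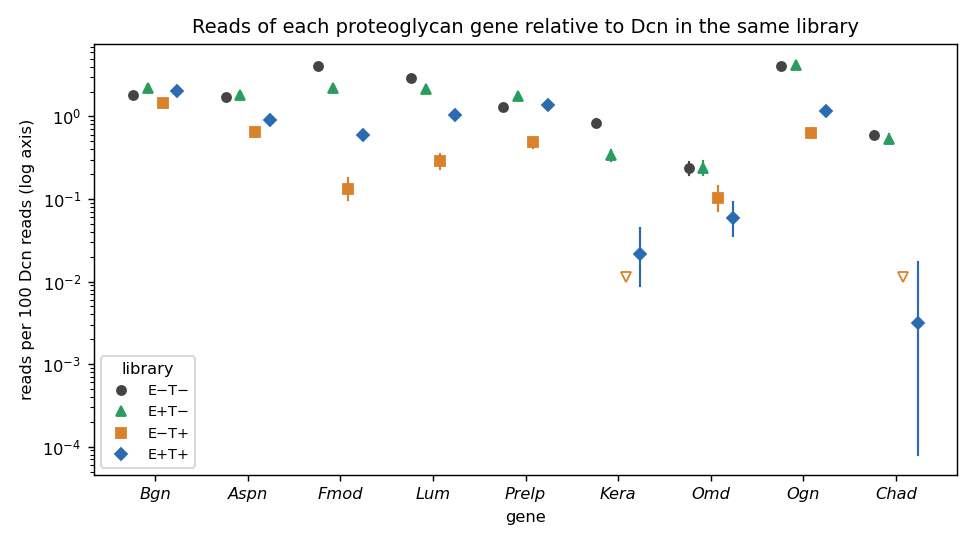
Reads of 9 proteoglycan genes per 100 Dcn reads in the same library (vertical axis, log scale), with 95% Clopper-Pearson intervals as bars and open triangles at the upper limit for a count of 0. The cancer control squares lie lowest for Fmod, Lum, Prelp, Ogn and Aspn, and the Bgn points stay between 1.47 and 2.22.

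Collagens are the main binding partners of the family, and their transcripts were lower in the same libraries. Of 14 fibrillar, fibril-associated and type VI collagen genes, all 14 were lower in cancer control than in normal control, where 24.2% of all genes were, with a median log2 change of -3.94. In normal exercise 11 of 14 were lower than in normal control (median -1.39), where 12.1% of all genes were. In cancer exercise 9 of 13 were lower than in normal exercise (median -1.42), where 16.3% of all genes were. With exercise in tumor-bearing mice 8 of 12 were higher and none lower (median 1.31), where 15.6% of all genes were higher. With genes at 0 reads set to the floor the first 3 medians were -3.85, -1.30 and -1.31. Col1a1, encoding the α1 chain of collagen I, had normalized read counts of 9741 in normal control and 1096 with normal exercise, against 124 in cancer control and 377 with cancer exercise. Per 100 Dcn reads there were 16.8, 2.93, 0.351 and 1.08 Col1a1 reads in the same order. From normal control to cancer control Col1a1 fell by 6.28 on the log2 scale, more than any of the 8 members with reads in every library.

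Col1a2, the α2 chain, had 13178, 2453, 574 and 789 in the same order, and Col3a1, of collagen III, had 8421, 1300, 212 and 523. Col6a3, of the type VI collagen to which decorin and biglycan bind, had 2185, 1043, 104 and 524. Each of these 4 collagen genes was highest in normal control and lowest in cancer control.

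Of 8 further genes of the family, only Podn and Ecm2 had over 100 normalized counts in any library. Podn, encoding podocan, had 763 in normal control and 315 with normal exercise, against 66.5 in cancer control and 140 with cancer exercise. Ecm2, which lies beside Aspn, had 700, 474, 54.7 and 167. Both follow the order of the 8 members above. Podnl1 was high in cancer control alone, with 48 reads there, 9 with normal exercise and 0 in the other libraries. Chadl had 26, 11, 3 and 3 reads, Tsku 3, 24, 3 and 11, Epyc 0, 0, 3 and 4, Optc 5, 0, 2 and 0, and Nyx 1 read in normal control alone.

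The enzymes that build and sulfate the glycosaminoglycan chains differed less as a group. Of 24 that reached the minimum, 8 were lower and 3 higher in cancer control than in normal control, with a median log2 change of -0.42. Of all genes, 24.2% were lower and 20.9% higher there. The higher ones were Chpf2, Chst3 and Chst11. With exercise in tumor-free mice Chsy3 was lower and Chst3 and Chst15 were higher (median -0.16), and in tumor-bearing mice Chpf2, Chst3, Chst12, Chst15 and Ust were lower and B4galt7 and B3galt6 higher (median 0.042). Cancer exercise against normal exercise had 6 lower and 3 higher, namely B4galt7, Chst11 and B4galt1 (median -0.37). Chpf2, a chondroitin polymerizing factor, had normalized counts of 144, 164, 953 and 249 and so was highest in cancer control. B4galt1, a galactosyltransferase, had 947, 519, 664 and 1294, whereas Fam20b, a kinase that phosphorylates the xylose of the linkage region, stayed between 309 and 388. Csgalnact2, which starts chondroitin chains, lay between 338 and 611.

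Among 5 tested genes of tyrosine sulfation and propeptide cleavage, 2 were lower in cancer control than in normal control and none higher (median -0.87). They were Pcolce and Pcolce2, enhancers of procollagen cleavage. Over the 4 libraries, in the order used above, Pcolce had 1442, 851, 545 and 702 and Pcolce2 had 797, 500, 330 and 293. In cancer exercise against normal exercise Tpst1 was lower (median -0.53), and exercise went with no call in either setting (medians -0.37 without and -0.076 with tumor). Bmp1, the protease that trims the biglycan propeptide, had 201, 156, 109 and 107, and Tpst2, a tyrosine sulfotransferase, stayed between 245 and 276.

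The growth factors and other ligands of the family showed no common direction. In cancer control against normal control 5 of 11 were lower, Tgfb2, Mstn, Igf1, Pdgfb and Fn1, and C1qa was higher (median -0.37), where 24.2% of all genes were lower and 20.9% higher. In normal exercise against normal control 3 of 12 were lower, Mstn, Igf1 and Fn1 (median -0.04). With exercise under tumor 1 of 11 was higher, Pdgfb (median 0.17). In cancer exercise against normal exercise 3 of 12 were lower, Tgfb2, Bmp2 and Tnf, and Mstn, the muscle growth inhibitor myostatin, was higher (median -0.018). Igf1 had 2270, 876, 1003 and 1287 in the 4 libraries and Fn1, fibronectin, 1703, 789, 622 and 432, both highest in normal control. Bmp4 stayed between 568 and 676. C1qa, of the complement protein that binds these proteoglycans, was higher in the cancer libraries, at 1132, 1094, 2651 and 2182.

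Of 21 receptors tested, 6 were higher in cancer control than in normal control, against 20.9% of all genes, 1, Lrp6, was lower and 14 were neither (median 0.54). Between the exercise groups Itga1, Itgb3 and Tgfbr3 were higher with the tumor and Kdr was lower (median 0.30). With exercise alone Tlr2, P2rx7 and Musk were higher and Egfr, Itga1 and Itgb3 lower (median -0.11), and with exercise under tumor P2rx7 was higher and Cd44 lower (median -0.42). Among the most abundant ones, Dag1, or dystroglycan, stayed between 2220 and 3533, Itgb1, the integrin β1 chain, between 1739 and 2146, and Sgca, a sarcoglycan, between 819 and 1437.

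Of the proteases known to cleave matrix proteoglycans, 6 of 11 were higher in cancer control and none lower (median 1.06, or 0.90 with Gzmb at the floor of 3 reads), and in cancer exercise against normal exercise 4 of 10 were higher, Mmp3, Mmp14, Adamts4 and Ctss (median 0.79). Of all genes, 20.9% were higher in the former comparison and 13.9% in the latter. With exercise Mmp2, Htra1 and Ctsk were lower without tumor (median -0.31) and Gzmb, with 0 reads against 5, with tumor (median -0.26). Mmp14, a membrane-bound metalloprotease, had 384 in normal control and 245 with normal exercise, against 846 in cancer control and 861 with cancer exercise. Ctss, the cathepsin S of antigen-presenting cells, had 313, 297, 1050 and 763. Mmp2, a gelatinase, had 1495, 696, 1198 and 998, and Adamts1, an aggrecanase, had 399, 627, 746 and 801. The 7 macrophage markers summed to 293 and 321 RPM in the normal libraries and to 535 and 466 in cancer control and with cancer exercise. They did not all move together, as in cancer control against normal control 4 had a positive and 3 a negative sign (median 0.49). In cancer exercise against normal exercise 5 had a positive and 2 a negative sign (median 0.83). The part of macrophages in the protease levels was not tested.

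Proteoglycans outside the family were mixed. Of 18 tested, 6 were lower in cancer control than in normal control and 5 higher, Prg4, Sdc4, Spock2, Spock3 and Esm1 (median -0.70). Of all genes, 24.2% were lower and 20.9% higher there. Between the exercise groups Ncan was lower with the tumor and Bcan, Prg4, Sdc4 and Spock2 were higher (median -0.13). With exercise alone Sdc1 and Gpc3 were lower and Ncan higher (median -0.25), and with exercise under tumor Spock2 and Esm1 were lower and Bcan and Sdc1 higher (median -0.034). Prg4, the lubricant of joint and tendon surfaces, had 1004, 854, 2865 and 2026 and so was higher in the cancer libraries. Gpc1, a glypican, stayed between 1618 and 2189, and Srgn, the proteoglycan of blood cell granules, between 784 and 1107. Hspg2, the basement membrane perlecan, had 690, 533, 355 and 266.

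Markers of the cells that make these proteins moved with them. Of 12 fibroblast markers 9 were lower and none higher in cancer control than in normal control, where 24.2% of all genes were lower, with a median log2 change of -2.20. The median was -0.70 for normal exercise against normal control (Pi16, Col15a1, Dpt, Mfap5 and Fbn1 lower, as were 12.1% of all genes). It was 0.46 for cancer exercise against cancer control (Dpp4, Dpt and Clec3b higher, as were 15.6% of all genes). For cancer exercise against normal exercise it was -1.06 (7 lower, as were 16.3% of all genes). Their sum was 4481 and 3715 RPM in normal control and with normal exercise, and 1342 and 1818 in cancer control and with cancer exercise, the order of the 8 members above. The sum is dominated by Gsn, which muscle also expresses and which had 32453 of the 50500 marker reads in normal control. The markers did not all move together, since Ly6a had normalized counts of 2091, 1705, 2214 and 2718, while Cd34 had 4263, 3975, 1496 and 2192. The part of fibroblast number in the proteoglycan levels was not tested.

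Set against the fibroblast markers, Dcn and the sum of the other 9 genes went separate ways. There were 108 and 94 Dcn reads per 100 marker reads in normal control and with normal exercise, and 231 and 160 in cancer control and with cancer exercise. For the sum of the other 9 genes the ratio was 18.9, 14.4, 8.65 and 11.5 in that order. Within that sum Bgn went with Dcn, at 1.94 and 2.08 reads per 100 marker reads in the normal libraries and 3.4 and 3.29 in the cancer libraries. Prelp stood at 1.41, 1.66, 1.12 and 2.2 and so was highest with cancer exercise. This choice of reference was made after the data had been seen.

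Most tendon markers moved in the same direction. Of 9, 8 were lower in cancer control than in normal control, as were 24.2% of all genes, and none was higher (median -2.82). Fibin went the other way, with normalized counts of 467, 241, 899 and 537 in the 4 libraries, highest in cancer control. Tnmd, Comp, Cilp2 and Cpxm2 were lower with normal exercise (median -0.95), where 12.1% of all genes were. With cancer exercise Mkx, Thbs4, Comp and Cpxm2 were higher than in cancer control (median 0.93), where 15.6% of all genes were. Against normal exercise Tnmd, Mkx, Comp and Cilp2 were lower, as were 16.3% of all genes, and Fibin was higher (median -0.36), as were 13.9%. Their sum was 812 RPM in normal control, 460 with normal exercise, 233 in cancer control and 431 with cancer exercise. In normalized counts, the scale of the member levels, the sum was 9735, 4930, 2652 and 5146, so that cancer exercise stood above normal exercise. Thbs4, thrombospondin 4 of the muscle-tendon junction, had normalized counts of 6038, 3455, 1346 and 3714. Cilp2 had 1048, 254, 14 and 26.1, and Cilp had 418, 322, 208 and 396. Tnmd, or tenomodulin, a defining tendon gene picked after its values were seen, had 723, 231, 14 and 10 reads, and Comp had 175, 66, 0 and 11. How much tendon each sample contained was not recorded in the sources used here, and its part in the proteoglycan levels was not tested.

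The defining markers of cartilage and bone were at or near 0. Acan, Matn1, Sp7, Bglap and Col10a1 had 0 reads in all 4 libraries, Col9a1 had 11 and 5 and Col2a1 4 and 0 in the normal libraries and 0 in the cancer libraries, and the 9 cartilage and bone markers found summed to 14 to 21.4 RPM, nearly all from Sox9. A gene listed at 0 need not be absent from the tissue, since Tgfb1, a widely expressed gene, also had 0 reads in all 4 libraries. Fat markers summed to 1351, 554, 403 and 864 RPM in the 4 libraries. All 6 were lower in cancer control than in normal control, where 24.2% of all genes were. Epidermal markers stood out in cancer control alone, where all 9 found had reads, with Flg2 at 148 reads against 0 in each other library, and their sum was 81.5 RPM against 7.98 to 20.4. Red cell markers summed to 20775, 4804, 20630 and 42252 and neutrophil markers to 5.68, 13.9, 231 and 157. Markers of nerve sheath and Schwann cells summed to 449, 292, 555 and 193. These sums, from cartilage to nerve sheath, did not rank the libraries like the 8 members, although that of fat was also highest in normal control and lowest in cancer control, and their part in the proteoglycan levels was not tested.

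The genes outside these lists most like the family were found by the distance between centred log2 values over the 4 libraries, against the median profile of the 10 members, among 12055 genes with a mean normalized count of at least 16. The profile was 1.46 in normal control and 0.72 with normal exercise, against -1.58 in cancer control and -0.70 with cancer exercise. The 5 nearest were Lyplal1 at a distance of 0.11, Ndn and Phkg1 at 0.13, Mcc at 0.14 and Slc25a10 at 0.16. Ndn, encoding necdin, had normalized counts of 496, 281, 57.9 and 98.6, and Phkg1, the muscle phosphorylase kinase subunit, had 1061, 701, 139 and 241. The members themselves lay farther from their median profile, from 0.47 for Ogn to 4.49 for Kera and 5.23 for Chad, so that these genes resemble the median and not each member. With 4 values per gene, many genes can share such a profile.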

How the data were processed

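Gastrocnemius RNA was sequenced in 4 libraries, 1 per group, grouped by the sample titles. The authors aligned reads with Bowtie2, counted them with bedtools and applied quantile normalization in edgeR. The submitters' processing notes name mm10, whereas tool versions, annotation and strand handling are not given in the sources used here. Deposited values are on the log2 scale, after adding 1 to each normalized count. Whole read counts were rebuilt from them with a fitted model of the quantile adjustment (1 scaling factor per library, dispersion 0.3393), which matched 100% of values within 0.0006 on the log2 scale and was tested on simulated data. Between 93.8% and 95.5% of values per library were tied to 1 count, and very high counts such as those of Dcn are approximate.

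Log2 changes are differences of deposited values, so that the added 1 understates the changes of low genes. The threshold was 2-fold, with a normalized count of 4 or more in either library. Intervals are 95% Clopper-Pearson intervals from rebuilt reads, turned into log2 ratios with the fitted scaling. No molecular identifiers were stated for the reads, so intervals and the floor of 3 reads cover counting error only. Total reads were 11269884 (normal control), 13225969 (normal exercise), 10647523 (cancer control) and 11026544 (cancer exercise). With 1 library per group no test was run. The members and gene lists were chosen with earlier results of these data known. Named are all 10 members, the genes of their family, up to 4 genes of highest mean count in each other list and the 5 genes of nearest profile, and genes that make up a count of 5 or fewer, Tnmd, Comp and Flg2 were named after their values were seen. A gene of the receptor list that the rule would name is not reported here. Alternatives were other scalings, a pseudocount of 4, no minimum or one of 16, a 4-fold threshold and leaving out the 10 most abundant genes of each library. Scaling to fibroblast markers, the alternatives for the exercise difference and the share without Dcn were chosen after seeing the data. Python 3.11.15, numpy 2.4.6, scipy 1.17.1, pandas 2.3.3 and matplotlib 3.10.9 were used, and coordinates are from GENCODE M21.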

Additional observations from a re-analysis of the deposited data

Results flagged for a closer look

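The change with exercise ran in opposite directions with and without the tumor, by at least 2-fold on both sides, in 3 of the 10 genes and, lower without and higher with the tumor, in 2.63% of the 13524 genes tested in both comparisons. The log2 change with tumor minus that without was 3.65 for Fmod, 2.91 for Lum and 4.97 for Kera. Every group had 1 library, so these differences were not tested, and that of Kera rests on 0 reads in cancer control and 7 in cancer exercise, and is 3.17 with the floor of 3 reads. Lum was short of 2-fold in the tumor-free comparison with total count scaling, at -0.92.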

How the results depend on the processing

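No paired analysis was possible because each group had 1 library, and for the same reason no library could be left out. Of 176 recomputed changes of single genes, which cover the 22 called changes under 8 alternatives, 157 stayed on the same side of the threshold with the same direction, 19 no longer passed it and 0 reversed. Part of this tally was fixed in advance. TMM scaling differed from the fitted scaling by at most 0.011%, so it repeats the main result. Other minima and the 4-fold threshold leave the log2 changes as they are and could not reverse a direction. Of the 19, 10 were lost with a 4-fold threshold and 7 with scaling to the summed fibroblast markers. With a 4-fold threshold the count of genes changed was 0 for exercise without tumor (9.9% of all genes), 2 for exercise with tumor (14.2%), 3 for tumor with exercise (13.5%) and 7 for tumor without exercise (21.4%). With fibroblast scaling Dcn in tumor without exercise and Omd in exercise with tumor, not called otherwise, passed the threshold at 1.10 and -1.30, and 4 genes had an exercise difference of at least 1. The share of the 10 genes in all reads was 0.785%, 0.521%, 0.383% and 0.392% in E-T-, E+T-, E-T+ and E+T+ without the 10 most abundant genes of each library, and 0.0846%, 0.0537%, 0.0116% and 0.021% without Dcn. Fibroblast scaling moved the median of all genes to 0.42, 1.78, -0.50 and 0.86 in exercise without tumor, tumor without exercise, exercise with tumor and tumor with exercise. Depth limits Kera and Chad in the cancer libraries, with 0 to 7 reads, and Omd, with 19 and 34.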
